A study of Ovis aries with 18 samples.

Results

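The miRNAs described here lie antisense to PEG11, also called RTL1, in the callipyge or DLK1-DIO3 locus of the sheep. They were chosen by name, as every row of the count table for miR-127, miR-136, miR-431, miR-432 or miR-433 with or without an arm suffix. There were 4 such rows among 364, namely miR-431, miR-433-3p, miR-127 and miR-432. miR-136 was not analysed here.

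PEG11 is a retrotransposon-derived gene expressed from the paternal chromosome, while its antisense transcript is made from the maternal chromosome. The miRNAs cut out of that antisense transcript match the PEG11 messenger RNA perfectly and guide its cleavage, so the maternal copy represses the paternal one in trans. In callipyge sheep, whose hindquarter muscles are enlarged, PEG11 and DLK1 are overexpressed in muscle, and the miRNAs of this locus are otherwise best known from muscle, brain and placenta.

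The study followed plasma small RNA during the onset of obesity and leptin resistance. All animals were Polish Longwool ewes without ovaries that carried estradiol implants, so both diets share this hormonal state. CTRL ewes were on a standard diet and OBESE ewes on a high-fat diet lasting 14 weeks, with 6 ewes per diet, and plasma was taken at weeks 7, 10 and 14. The ewes' age is not given in the sources used here. Of each diet and week there were 3 libraries, 18 in all. The labels do not say which ewe, or how many, stand behind a library, so p-values measure only how far libraries spread, which may include technical spread, and the same ewe could stand behind several weeks of its diet. In plasma, release from a tissue, clearance and the number of cells releasing the miRNA cannot be told apart.

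Total counts ran from 388574 to 1269829 per library (median 686025), and 222 to 292 of the 364 features had a count. By composition, 2 CTRL libraries were unlike the rest under TMM, which scales each library to its typical miRNA. The factor was 0.653 in replicate 1 of week 7 and 0.718 in replicate 3 of week 14, against 0.891 to 1.19 in the remaining libraries. Levels are given as CPM, the count scaled to a common library total after TMM, unless the plain library total is named. A mature miRNA is about as long as any other, so no length enters, but miRNAs differ in how readily they are captured into a library, which these data do not measure.

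All 5 miRNA genes that RefSeq places inside the RTL1 gene span stand next to each other, in the order MIR431, MIR433, MIR127, MIR432 and MIR136 (assembly ARS-UI_Ramb_v3.0, used for names and order). The levels in plasma split the 4 counted rows into a low and a high pair of neighbours. miR-432 averaged 403 ± 216 CPM (SD, n = 18) and miR-127 averaged 109 ± 41.3 CPM. The remaining pair lay near the counting limit, miR-433-3p at 1.40 ± 1.95 CPM and miR-431 at 1.02 ± 2.32 CPM. Of the 4 rows, 2 (miR-127 and miR-432) passed the filter on low counts that decides what is tested, which 168 of the 364 features passed. By mean level miR-432 ranked 66 among all 364 features and 29 among the 107 named ones, and miR-127 ranked 93 and 38. Within the 59 named rows of the DLK1-DIO3 locus, which belong to 43 RefSeq genes on 1 chromosome, miR-432 ranked 2 and miR-127 ranked 4, while miR-433-3p ranked 29 and miR-431 ranked 37.

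**Figure D1:**
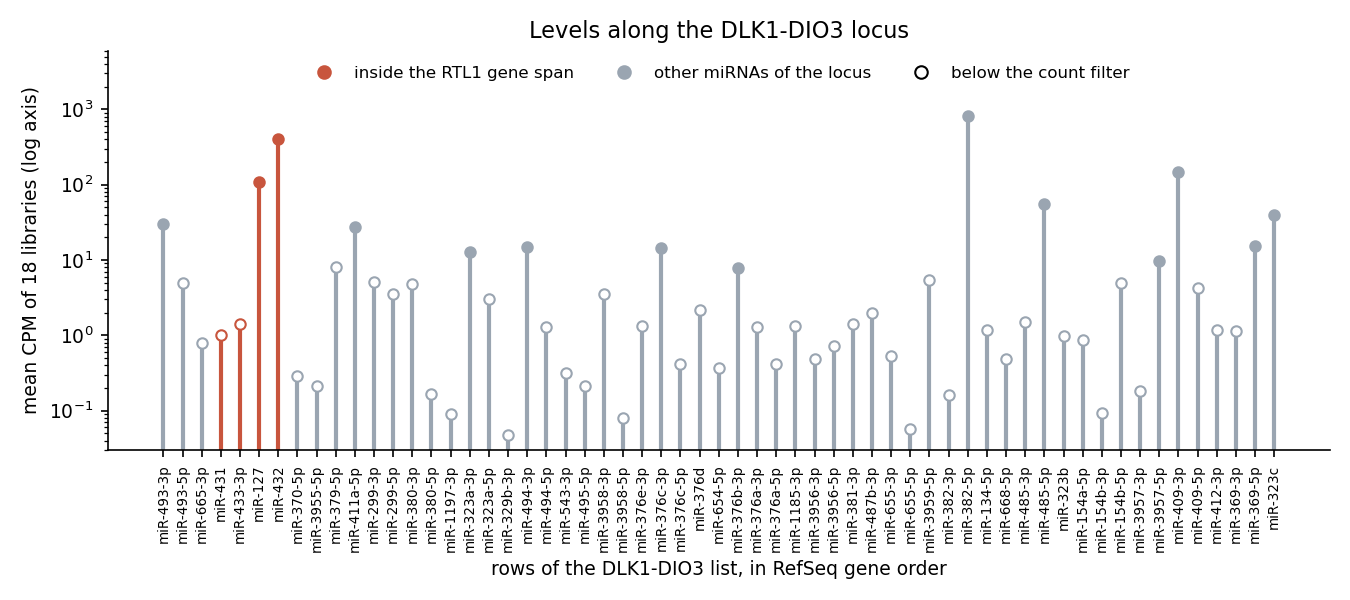
Mean level of each of the 59 named rows of the DLK1-DIO3 locus over 18 libraries (log axis, TMM-scaled CPM), in RefSeq gene order along the chromosome. Red marks the 4 rows inside the RTL1 gene span and open circles mark rows below the count filter. miR-431 and miR-433-3p stand near 1 CPM beside miR-127 at 109 and miR-432 at 403 CPM.

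The other abundant miRNAs of the locus lie elsewhere in it. miR-382-5p led with 807 ± 344 CPM (SD, n = 18), followed after miR-432 by miR-409-3p at 148 ± 51.4 CPM, and below miR-127 by miR-485-5p at 55.2 ± 21.8 CPM and miR-323c at 39.0 ± 26.1 CPM. Of the 59 rows, 11 had a count in all 18 libraries and 33 in fewer than 9. The 4 rows antisense to PEG11 together held 28.6% ± 4.51 of the locus counts (SD, n = 18), between 18.6% in CTRL week 7 replicate 3 and 36.2% in CTRL week 7 replicate 1. Their share of all counts was small and more spread, 0.0509% ± 0.0222, from 0.0191% in CTRL week 14 replicate 3 (exact 95% binomial interval 0.0165% to 0.0221%) to 0.0981% in OBESE week 14 replicate 3 (0.0895% to 0.107%). Binomial and Poisson intervals here cover counting error only.

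miR-432 was the more abundant of the high pair in 18 of 18 libraries. Its count was 3.63 ± 1.09 times that of miR-127 (SD, n = 18), a ratio that does not depend on scaling. The lowest ratio, 1.82 in CTRL week 7 replicate 3 (exact 95% interval 1.17 to 2.87), and the highest, 5.87 in CTRL week 7 replicate 1 (4.52 to 7.72), came from the same diet and week. Their intervals, which cover counting error only, did not overlap, but these libraries were picked as the extremes of 18. By diet the mean ratio was 3.77 ± 1.29 (SD, n = 9) for CTRL and 3.50 ± 0.899 (SD, n = 9) for OBESE.

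miR-127, which represses the transcriptional repressor BCL6 in addition to PEG11, was counted 32 to 141 times per library. In CTRL libraries its level was 155, 97.6 and 76.5 CPM at week 7, in the order of replicates 1 to 3. It was 76.3, 110.1 and 95.7 CPM at week 10, and 63.5, 126 and 65.5 CPM at week 14. In OBESE libraries it was 72.3, 119.8 and 202 CPM at week 7, 100.1, 97.9 and 151 CPM at week 10, and 104, 66.6 and 188 CPM at week 14. OBESE replicate 3 was the highest OBESE library at each week, and the diets overlapped at each week. The group means, from the highest, were 131 ± 65.4 CPM in OBESE week 7, 119.7 ± 62.2 in OBESE week 14, 116 ± 30.3 in OBESE week 10, 109.8 ± 40.7 in CTRL week 7, 94.0 ± 17.0 in CTRL week 10 and 84.9 ± 35.4 in CTRL week 14 (SD, n = 3 each). No neighbours in this order differed by more than their spread, but sorting sets the closest means side by side.

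miR-432 was counted 60 to 532 times per library. In CTRL libraries its level was 910.3, 299.9 and 139 CPM at week 7, again in the order of replicates 1 to 3. It was 415, 398 and 279.9 CPM at week 10, and 289.8, 446 and 201 CPM at week 14. In OBESE libraries it was 321, 265 and 761 CPM at week 7, 267, 265 and 665 CPM at week 10, and 298, 305 and 729 CPM at week 14. In each OBESE group replicate 3 stood high and the remaining libraries lay between 265 and 321 CPM. With TMM, CTRL week 7 held both the highest and the lowest library of the series. By the plain library total the highest was OBESE week 14 replicate 3 at 778 CPM and the lowest CTRL week 14 replicate 3 at 144 CPM. The group means were 449.8 ± 407 CPM in CTRL week 7, 449 ± 272 in OBESE week 7, 444 ± 247 in OBESE week 14, 399 ± 231 in OBESE week 10, 364 ± 73.5 in CTRL week 10 and 312 ± 124 in CTRL week 14 (SD, n = 3 each). Neighbours in this sorted order, again the closest means, did not differ by more than their spread.

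**Figure D2:**
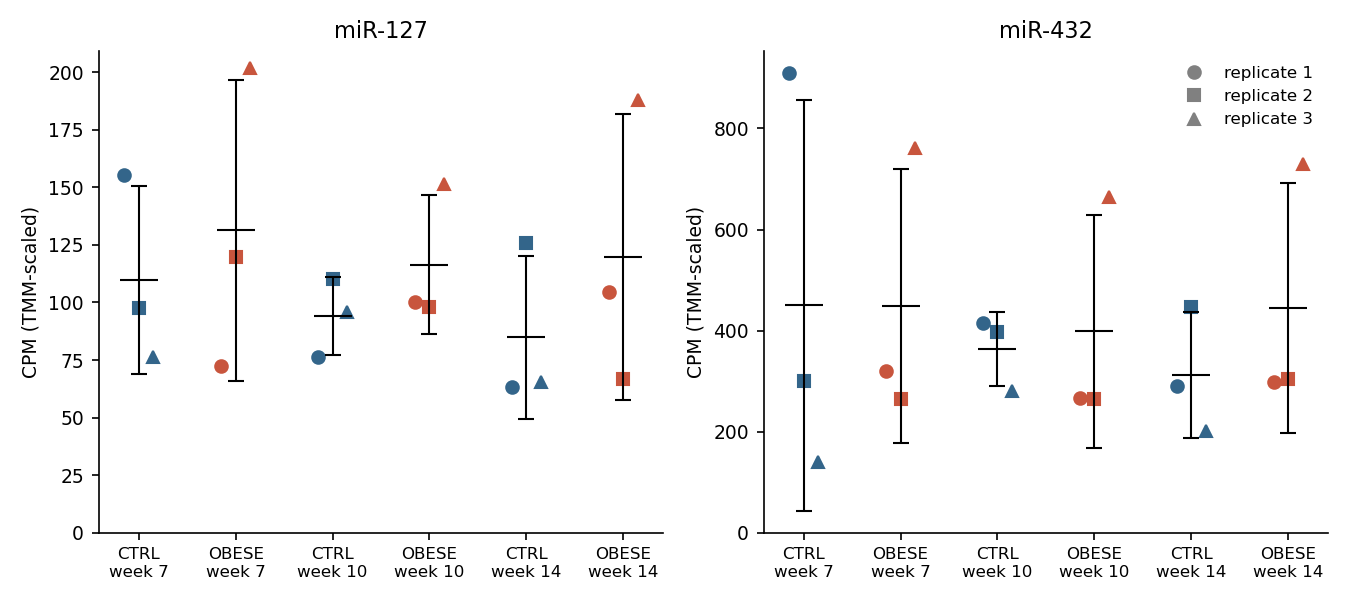
Level of miR-127 (left) and miR-432 (right) in each library, in TMM-scaled CPM, by diet and week, with CTRL in blue and OBESE in red. Marker shape gives the replicate number, and the bars are the mean and SD of 3 libraries. The red triangles, OBESE replicate 3, are the highest OBESE libraries at all 3 weeks, at 151 to 202 CPM for miR-127 and 665 to 761 CPM for miR-432.

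The spread between libraries was larger than counting error. The coefficient of variation over 18 libraries was 37.7% for miR-127 and 53.7% for miR-432, while counting alone gives between 8.42% and 17.7% for miR-127 and between 4.34% and 12.9% for miR-432. The edgeR biological coefficient of variation within groups was 37.8% for miR-127, and its dispersion was at the 57.7th percentile of the 168 tested features. For miR-432 it was 50.4%, at the 81.5th percentile.

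The libraries labelled OBESE replicate 3 stood out on either scale. As plain CPM of the library total, miR-432 was 678, 734 and 778 CPM in them at weeks 7, 10 and 14, the 3 highest values of the 18 libraries, and CTRL week 7 replicate 1 came next at 594 CPM. miR-127 was 179.7, 167 and 201 CPM in them, again the 3 highest. With TMM, CTRL week 7 replicate 1 ranked 1 for miR-432 and 3 for miR-127. That library had the lowest TMM factor, which raises all of its TMM-scaled levels. The 3 counted red blood cell miRNAs of the 6 on that list summed there to 540984 CPM of the plain library total, against 428804 to 552343 in the other 17 libraries (828880, against 359332 to 769278, with TMM). Nearly all of this sum was miR-16b, so it mainly shows that miRNA. miR-16b alone held 53.9% of the counts there, and 42.7% to 55.1% over the 18 libraries. The muscle miRNA miR-133 was highest in it, at 83.1 CPM of the library total against 2.57 to 47.9 (127.4, against 2.38 to 43.1, with TMM). The part of these cells in its values was not tested. In the OBESE replicate 3 libraries the same red blood cell sum lay between 417827 and 578808 CPM, against 359332 to 472190 in the other OBESE libraries (460785 to 515624, against 428804 to 466299, of the library total). miR-133, the 1 counted member of 3 muscle markers, lay there between 7.68 and 13.5 CPM, against 8.28 to 41.3 in the other OBESE libraries. The 3 counted of 5 platelet miRNAs summed to 24785 to 34089 CPM there, against 29831 to 56018 in the other OBESE libraries. This sum does not show its members singly, and 1 of them, miR-199a-3p, is set beside the high pair below. The lymphocyte marker miR-150 lay between 3445 and 8649 CPM, against 2815 to 26777. The part of these cells in the levels was not tested. The remaining red blood cell, muscle and platelet markers and the liver marker miR-122 were not analysed here.

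Other miRNAs of the locus were highest in the same OBESE libraries. Of the 12 further locus miRNAs with enough counts to be tested, 6 had their highest OBESE level in replicate 3 at all 3 weeks (miR-323a-3p, miR-323c, miR-382-5p, miR-409-3p, miR-485-5p and miR-493-3p). Over all 168 tested features 19 did (11.3%), and with plain library totals the same 6 of 12 and 13 of 168 (7.74%). These counts were made after the pattern was seen and carry no test.

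**Figure D3:**
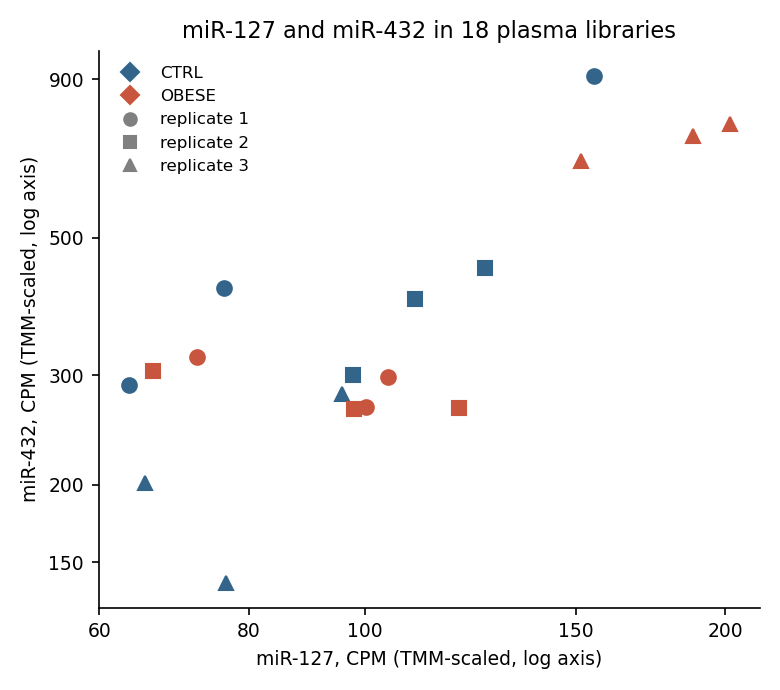
miR-127 (x axis) against miR-432 (y axis) in the 18 libraries, in TMM-scaled CPM on log axes, coloured by diet with marker shape by replicate number. The 3 OBESE replicate 3 libraries and CTRL week 7 replicate 1 lie apart at the upper right, with 151 to 202 CPM of miR-127 and 665 to 910.3 CPM of miR-432.

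Levels were compared across libraries to find the miRNAs most like the high pair, by Pearson's r of log2 CPM over the 18 libraries, given as a description since libraries may share ewes and each pair of values shares its library and scaling. The feature most like miR-127 among 167 others was miR-432 (r = 0.78, Spearman's rho = 0.61), followed by miR-382-5p (r = 0.74, rho = 0.56). For miR-432 they were miR-382-5p (r = 0.84, rho = 0.82) and miR-323a-3p (r = 0.79, rho = 0.63), with miR-127 next (rank 3). Without the 2 libraries farthest from the median of the first-named miRNA these 4 relations had r = 0.67, 0.52, 0.78 and 0.77. The relation of miR-127 and miR-432 had r = 0.77 within the 9 CTRL and r = 0.82 within the 9 OBESE libraries, and r = 0.60 over the 15 libraries without OBESE replicate 3. That of miR-127 and miR-382-5p was r = 0.40 over those 15 libraries, 0.63 within CTRL and 0.75 within OBESE libraries, while that of miR-432 and miR-382-5p was r = 0.72. Over the 13 other tested rows of the locus the median r was 0.58 for miR-127 and 0.45 for miR-432, and over the 154 tested features outside it -0.02 for each. With plain library totals these medians were 0.51 and 0.43 in the locus, and 0.12 and 0.03 outside it. Highest outside the locus for miR-127 was miR-199a-3p of the platelet list, at r = 0.64 (rank 6, and 0.66 within OBESE libraries). With miR-432, miR-199a-3p had r = 0.53 (rank 8, and 0.71 within OBESE libraries). Over the 15 libraries without OBESE replicate 3 its r was 0.53 with miR-127 and 0.29 with miR-432. The other counted platelet miRNAs are not given singly, and their sum with miR-199a-3p is given above. Next outside the locus for miR-127 came miR-125b, on none of the marker lists, at r = 0.61 (rank 7, and 0.52 within OBESE libraries). Without OBESE replicate 3 the r of miR-125b with miR-127 was 0.63. miR-3957-5p was the 1 locus row with a negative r, at -0.29 with miR-127 and -0.10 with miR-432 (0.04 with plain library totals).

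The low pair was counted in few libraries. miR-431, which promotes muscle regeneration by repressing Pax7, had 14 counts in all, spread over 5 of 18 libraries. They were 6 counts in CTRL week 10 replicate 2 (exact 95% Poisson interval 2.20 to 13.1), 4 in CTRL week 14 replicate 2, 2 in OBESE week 10 replicate 1 and 1 each in OBESE replicate 3 at weeks 10 and 14. Of these counts 10 thus came from CTRL libraries numbered replicate 2, and at week 7 no library of either diet had any. A count of 0 allows up to 3 counts, or 2.36 to 7.72 CPM of the library total depending on depth, so most libraries could hold the mean level of miR-431 without showing it.

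miR-433-3p, from the hairpin next to miR-431 and studied as a repressor of FGF20, had 19 counts in 7 of 18 libraries. They were 2 and 3 counts in OBESE week 7 replicates 1 and 3, 2 in CTRL week 10 replicate 1, and 3 and 4 in OBESE week 10 replicates 1 and 3. The rest were 2 and 3 counts in CTRL week 14 replicates 1 and 2. No single library exceeded 4 counts, and neither CTRL week 7 nor OBESE week 14 libraries had any. Summed by diet, miR-433-3p gave 12 counts in OBESE and 7 in CTRL libraries, a ratio of 1.62 per total count (exact 95% interval 0.587 to 4.85), and miR-431 gave 4 and 10, a ratio of 0.377 (0.0864 to 1.31). Both intervals include 1, but they pool the counts of 9 libraries per diet and cover counting error only. Spread between libraries is not in them and was not tested for these 2 rows, so no conclusion on diet is drawn.

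**Figure D4:**
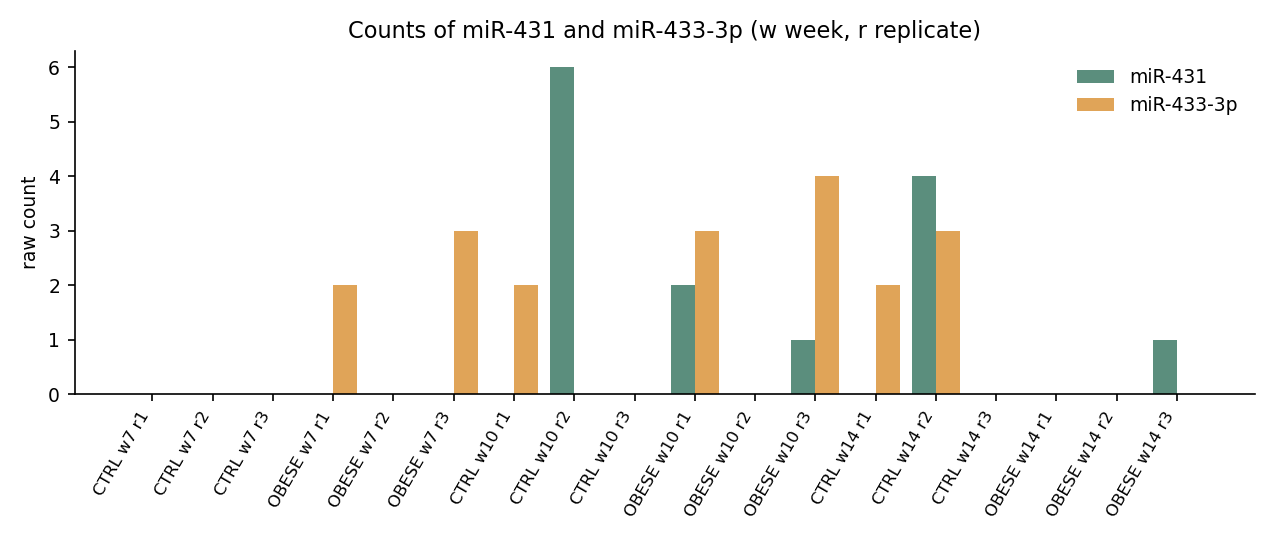
Raw counts of miR-431 (green) and miR-433-3p (yellow) in each of the 18 libraries, labelled by diet, week (w) and replicate (r). No library exceeds 6 counts, and 13 libraries have no count of miR-431 and 11 none of miR-433-3p.

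The diets were compared first over the whole period. The mean level of miR-127 was 122 ± 48.1 CPM under the high-fat diet and 96.2 ± 30.3 CPM under the standard diet (SD, n = 9 each). The fitted log2 fold change of OBESE over CTRL was 0.35 (SE 0.254), or 1.27-fold with a 95% interval of 0.879 to 1.84. That of miR-432 was 430.7 ± 218 and 375 ± 224 CPM. Its log2 fold change was 0.21 (SE 0.34), or 1.16-fold (0.705 to 1.90). With plain library totals in place of TMM the values were larger, 0.53 (SE 0.252) for miR-127 and 0.41 (SE 0.314) for miR-432, with unadjusted p = 0.05002 and 0.207 and edgeR adjusted p = 0.339 and 0.576. That scaling moved the median of all features from -0.00 to 0.16. Neither passed edgeR's quasi-likelihood test with Benjamini-Hochberg adjustment over 168 features (adjusted p = 0.563 and 0.843). Thus 0 of the 2 rows above the count filter passed, where 0% of all tested features did. At an unadjusted p under 0.05 it was 0 of 2, against 11.3% of all tested features, and with DESeq2 and limma-voom 0 of 2 as well. Both rows had a positive log2 fold change, as had 48.8% of all tested features (121 of 168 with plain library totals), and for neither did the diets separate (0% of tested features).

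The OBESE libraries numbered replicate 3 were the highest OBESE libraries for both rows at each week. Leaving them out of that diet alone therefore had to lower these small differences, and shows only by how much. Without those 3 libraries, an alternative chosen after the data were seen, the log2 fold change was -0.06 (SE 0.229) for miR-127 and -0.38 (SE 0.306) for miR-432. For miR-432 leaving out the week 7 or the week 14 library of them alone gave -0.02 and -0.01 and the week 10 library 0.04, while leaving out CTRL week 7 replicate 1 gave 0.50. For miR-127 the value stayed positive without any single library and was lowest, 0.14, without OBESE week 14 replicate 3.

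Within single weeks the intervals were wide. At week 7 the log2 fold change of OBESE over CTRL was 0.26 (SE 0.441) for miR-127 and -0.00 (SE 0.589) for miR-432, and without CTRL week 7 replicate 1 that of miR-432 was 0.98 (SE 0.544, edgeR adjusted p = 0.908). At week 10 they were 0.30 (SE 0.437) and 0.13 (SE 0.588), and at week 14 0.49 (SE 0.44) and 0.50 (SE 0.589), the latter -0.09 and -0.14 without OBESE week 14 replicate 3. The smallest edgeR adjusted p of these 6 values was 0.81. At each of the 3 weeks 0 of 2 rows passed, as did 0% of all tested features. At an unadjusted p under 0.05 it was again 0 of 2, against 5.36% of tested features at week 7, 6.55% at week 10 and 7.74% at week 14. Positive log2 fold changes were found for 1 of 2 rows at week 7 and 2 of 2 at weeks 10 and 14, where 48.8%, 48.8% and 49.4% of tested features had one. With plain library totals both rows were positive at each week, as were 118, 95 and 107 of 168 features. The diets overlapped for both rows at each week, while they did not overlap for 8.93% of tested features at week 7, 13.1% at week 10 and 9.52% at week 14. The diet difference itself did not pass a test of change with week (edgeR interaction, adjusted p = 0.988 for each row, and 0% of all tested features passed, with 4.17% and 0 of the 2 rows at an unadjusted p under 0.05).

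**Figure D5:**
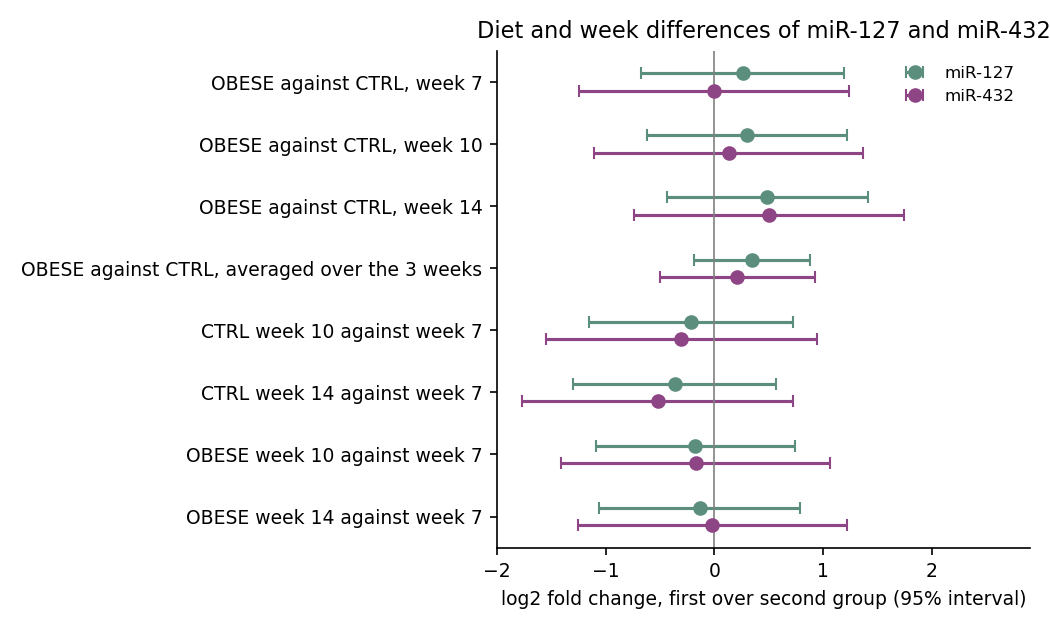
Fitted log2 fold changes of miR-127 (green) and miR-432 (purple) with 95% intervals for the 4 diet comparisons (OBESE over CTRL) and the 4 week comparisons (later over earlier week). All 16 intervals include 0.

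Over time, levels were compared with week 7 within each diet. In CTRL libraries the log2 fold changes at week 10 were -0.22 (SE 0.444) for miR-127 and -0.31 (SE 0.591) for miR-432, and at week 14 -0.37 (SE 0.443) and -0.52 (SE 0.591). Without CTRL week 7 replicate 1 these 4 values were 0.16, 0.76, 0.02 and 0.56, each with the opposite sign. In OBESE libraries they were -0.18 (SE 0.434) and -0.17 (SE 0.586) at week 10, and -0.14 (SE 0.437) and -0.02 (SE 0.587) at week 14. Without OBESE week 7 replicate 3 they were 0.32, 0.45, 0.32 and 0.59. None passed (smallest edgeR adjusted p = 0.947), nor did any other tested feature, 0% in each of these 4 comparisons. At an unadjusted p under 0.05 it was 0 of 2 rows each time, against 1.79% and 3.57% of tested features in CTRL and 4.17% and 7.74% in OBESE at weeks 10 and 14. All log2 fold changes of the 2 rows were negative, where 44% and 46.4% of tested features in CTRL and 47.6% and 50.6% in OBESE had a positive one. With plain library totals 3 of these 8 values turned positive, at most 0.11, where 116, 99, 93 and 91 of 168 features were positive. The weeks overlapped for both rows in each diet, while they did not overlap for 4.76% and 5.36% of tested features in CTRL and 16.1% and 13.7% in OBESE. Both weeks were set against the same week 7 libraries.

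The rest of the locus was set beside them with the same fit. Of the 55 other locus rows 12 were tested, and 0 of 12 passed in either direction in any of the 9 comparisons. For the diet difference averaged over weeks, 7 of 12 had positive log2 fold changes with a median of 0.15, where the median of all 168 features was -0.00 (10 of 12 and 0.38 with plain library totals, where the median of all features moved to 0.16). The smallest p among the 12 belonged to miR-323c, at 1.07 (SE 0.352, edgeR adjusted p = 0.202), and miR-409-3p, at 0.51 (SE 0.208, adjusted p = 0.281), while miR-382-5p had 0.38 (SE 0.24, adjusted p = 0.525) and miR-485-5p -0.10 (SE 0.239, adjusted p = 0.891). By week, 6 of 12 were positive at week 7 with a median of -0.16, 8 at week 10 with 0.16 and 9 at week 14 with 0.77. The medians of all 168 features were -0.02, -0.03 and -0.01, with 82, 82 and 83 positive.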

How the data were processed

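Per the labels' protocols, small RNA from 200 µL of plasma was made into libraries with a kit that carries molecular identifiers and read as single reads of 76 nucleotides. Tools named in the submitters' processing notes are Bowtie 1.3.1, cutadapt 4.9 and DESeq2 1.42. What genome build and annotation were used, and how reads matching several miRNAs were counted, is not stated in the labels or headers. The authors deposited raw counts per miRNA. Their table of the series and the files of single samples differed in 0 values.

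Computed here, in R 4.3.3 with edgeR 4.0.16: filterByExpr by group (minimum count 10, minimum total 15) kept 168 of 364 features, miR-127 and miR-432 among them. Counts were scaled by TMM, and 1 quasi-likelihood model with 6 groups was fitted to all 18 libraries, leaving 12 residual degrees of freedom. All tests were two-sided, at 0.05 with Benjamini-Hochberg adjustment, and the SE is the size of the log2 fold change over the square root of F. CPM for likeness used a prior count of 2. The fit was tested on simulated libraries drawn independently of each other, with changes larger than the main fit gave for miR-127 and miR-432. That test does not cover libraries that share ewes, or changes as small as these. Replicate pairs differed beyond sampling noise (chi-square per degree of freedom at least 29.6). Alternatives used RLE scaling, library totals, no filter, DESeq2 1.42.0, limma-voom 3.58.1, a replicate block, summed weeks and left-out libraries. The text names all 4 rows and the 2 features most like each tested one. Of the other locus miRNAs it names the 4 highest by mean and the 2 smallest p. It also names cell markers from fixed lists (miR-133, miR-150, miR-122, miR-16b and miR-199a-3p), miR-125b, miR-493-3p and miR-3957-5p. Of these, miR-16b, miR-199a-3p, miR-125b, miR-493-3p and miR-3957-5p were named after their values were seen. The rows and lists were chosen with earlier results of these data known.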

Additional observations from a re-analysis of the deposited data

Results flagged for a closer look

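Over the 9 libraries of each diet, the level of each of the 4 miRNAs was checked for a library far from the rest, which made 8 checks. Chance alone flags about 1 in 20 where values are normally distributed. That rate need not hold for skewed levels or for levels with many zeros. miR-432 in CTRL week 7 replicate 1, at 910.3 CPM, lay far above the next CTRL library at 446 CPM. With the plain library total the same library stood at 594 CPM, and its TMM factor was 0.653. miR-431 in CTRL week 10 replicate 2, at 9.05 CPM, lay above the next CTRL library at 4.58 CPM, from 6 and 4 counts. That gap was 0.494 of the range, against a limit of 0.493, and only 2 of the 9 CTRL libraries had any count.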

How the results depend on the processing

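Neither miR-127 nor miR-432 passed an adjusted p of 0.05 in any of the 9 comparisons under any alternative run. Over all features, the averaged diet difference gave 0 calls as reported, 4 without the filter on low counts, 2 with DESeq2 and 0 to 2 without single libraries, and week 14 gave 0 to 1 (the call came without CTRL week 14 replicate 2). Signs of log2 fold changes near 0 turned under several settings. For miR-432 the diet difference at week 7 (-0.000897) became 0.0584 with RLE, 0.38 with library totals, 0.0187 without the filter, 0.0582 with DESeq2 and 0.26 with limma-voom, and that at week 10 was -0.00347 with limma-voom. Its OBESE week 14 difference from week 7 became 0.0166 with RLE, 0.0848 with library totals, 0.0105 without the filter, 0.0183 with DESeq2 and 0.00831 with the replicate block within diets. Its CTRL week 10 difference from week 7 became 0.11 with library totals and 0.0587 with limma-voom. For miR-127 the CTRL week 10 difference became 0.0583 with library totals and the OBESE week 10 difference 0.0180 without the filter. Without the 3 OBESE replicate 3 libraries, chosen after seeing the data, the averaged diet difference was -0.0610 for miR-127 and -0.38 for miR-432. A fall was fixed in advance there, as these were the highest OBESE libraries. The cause of the turned signs was not tested.

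Without single libraries, miR-432 ranged from -0.0214 to 0.50 for the averaged diet difference, -0.60 to 0.98 at week 7, -0.40 to 0.36 at week 10 and -0.14 to 0.84 at week 14, and against week 7 from -0.73 to 0.76 and -0.95 to 0.56 in CTRL and -0.65 to 0.45 and -0.58 to 0.59 in OBESE at weeks 10 and 14. miR-127 ranged from 0.14 to 0.45 averaged, -0.21 to 0.53, 0.12 to 0.45 and -0.0851 to 0.85 by week, and from -0.41 to 0.16, -0.72 to 0.0196, -0.37 to 0.32 and -0.62 to 0.32 against week 7.

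With the replicate number as a block over all 6 groups, the averaged diet difference was 0.29 for miR-127 and 0.12 for miR-432 and no call changed. With the number as a block within each diet, the SEs of the week differences lay between 0.34 and 0.365, against 0.434 to 0.591 without a block. The CTRL differences of miR-432 from week 7 were then -0.02 at week 10 and -0.27 at week 14. Those of miR-127 were -0.20 and -0.40, and again no call changed. Same-numbered libraries of 1 diet deviated together with r over 0.1 in 16 of 18 pairs (median r 0.35). There, 17 of 18 libraries correlated best with their own number, a hint from the data that the labels do not back. Across the diets, r was over 0.1 in 14 of 27 pairs of the same number (median 0.10) and in 7 of 54 pairs of other numbers (median -0.04). Across diets, 11 of 18 libraries correlated best with their own number. The labels do not say what the number stands for, and its part was not tested. With weeks summed, the differences were 0.39 and 0.24 (edgeR adjusted p = 0.744 and 0.931). Depth limits miR-431 and miR-433-3p. Without the filter, 0 of the 4 rows passed in each comparison.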
